A study of Caenorhabditis elegans with 161 samples.

Results

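Embryos of the nematode Caenorhabditis elegans taken 60 min after the 4-cell stage were set against embryos of the same strains at 6 other stages. The 60 min group holds 20 libraries, 1 from each of 20 strains, out of 161 libraries in all, and was chosen by the column letter B and the labelled time alone. Its reference is the 120 libraries of those strains at 0, 180, 270, 440, 650 and 830 min, with 20 libraries at each stage. The strains are 19 mutation-accumulation lines, which pass through very small numbers of parents each generation so that selection is weak and mutations build up (502, 508, 516, 517, 522, 529, 530, 536, 550, 552, 555, 564, 566, 570, 573, 575, 593, 597 and 598), and N2, the laboratory wild type. A further 21 libraries repeat strain 522, with 3 at each of 7 time points lettered A to G in their titles. The time field of 18 of those 21 contradicts the title, so B in the repeats was matched to 60 min by its letter. No agent was applied to any group. Each library is a pool of 10 whole embryos, collected at the 4-cell stage from cut adults, washed in bleach and kept at 20 °C until frozen.

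Before the 4-cell stage the embryo runs almost wholly on RNA that the mother loaded into the oocyte. Its own genome is switched on over the next divisions, while many maternal mRNAs, above all those of RNA-binding proteins that pattern the early cells, are cleared. Among the genes known to be active early are pes-10 and the vet (very early transcript) genes, T-box and forkhead transcription factors, and a nematode expansion of Skp1-related genes. Skp1 proteins join an F-box protein to the cullin CUL-1 in SCF ubiquitin ligases, which mark proteins for breakdown.

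The 60 min libraries held 11540 to 234456 counts each (median 55656), and 3401 to 8841 genes had a count in a library. At 0 min the median total was 51106.5 and at 180 min it was 53079. The repeats were deeper, with 58543 to 456147 counts at B. Differentiated tissue served as a check of the stage: 19 genes of muscle structure held a median of 0.204% of counts at 60 min, against 0.12% at 0 min, 0.242% at 180 min and 3.91% at 830 min. Genes of the maternal RNA-binding list held 0.67% at 60 min, against 2.89% at 0 min and 0.172% at 180 min. Both 60 min medians lie between those of 0 and 180 min. No major sperm protein gene reached the test, and the list held a median of 0% at each stage. The labels do not state whether pools were grown apart, so p-values cover the spread between these pools and strains. In whole-embryo pools, fewer cells of a type and less RNA per cell cannot be told apart.

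A gene was called where edgeR's quasi-likelihood test, with strain as a block, gave a Benjamini-Hochberg adjusted p under 0.05 and a difference of at least 2-fold. Levels are in CPM, counts brought to the same library total over the genes tested and scaled by the trimmed mean of M values (TMM), and errors are SDs over 20 strains unless stated. Of 2970 genes tested, 751 (25.3%) were higher at 60 min than the mean of the other 6 stages and 1055 (35.5%) were lower, 1806 (60.8%) in all. Of the 751, 452 had their highest stage mean at 60 min, 171 at 0 min and 113 at 180 min. The median log2 difference over all genes was -0.19, and under another scaling, relative log expression, it moved to 0.07.

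The contrast with each neighbour in time gave a smaller number of calls than the contrast with late stages. Against 0 min, 482 genes (16.2%) were higher at 60 min and 439 (14.8%) were lower. Against 180 min, 505 (17%) were higher and 719 (24.2%) were lower. At later stages the shares grew: 676 (22.8%) were higher and 894 (30.1%) lower against 270 min, 915 (30.8%) and 1078 (36.3%) against 440 min, and 1021 (34.4%) and 1071 (36.1%) against 650 min. Against 830 min, 1041 (35.1%) were higher and 1087 (36.6%) were lower. The 6 contrasts share the 60 min libraries and are not independent of each other.

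A set of 63 genes (2.12% of those tested) was called higher at 60 min than at each of the other 6 stages, and these are called peak genes below. Since their own values chose them, their levels in the strains are a description, and tests of them come from the repeats. A gene with counts at 60 min alone enters the test only through those libraries, so the set holds the transcripts abundant enough there. Of the 63 genes, 55 kept the call at each stage under relative log expression scaling, and 55 kept it by another tool, DESeq2. Together the CPM of the 63 genes came to 3.23% to 5.89% of the TMM-scaled library size at 60 min, with a median of 4.16%. These shares are of scaled sizes over the genes tested, so they are not shares of raw counts. At 0 min the median was 0.611%, at 180 min 0.721%, at 270 min 0.21%, and at 830 min 0.0977%. The lowest share at 60 min, in strain 593, lies above the highest share of any library at another stage, which was 1.73% at 180 min. In N2 the share was 5.38%, within the range of the mutation-accumulation lines.

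**Figure D1:**
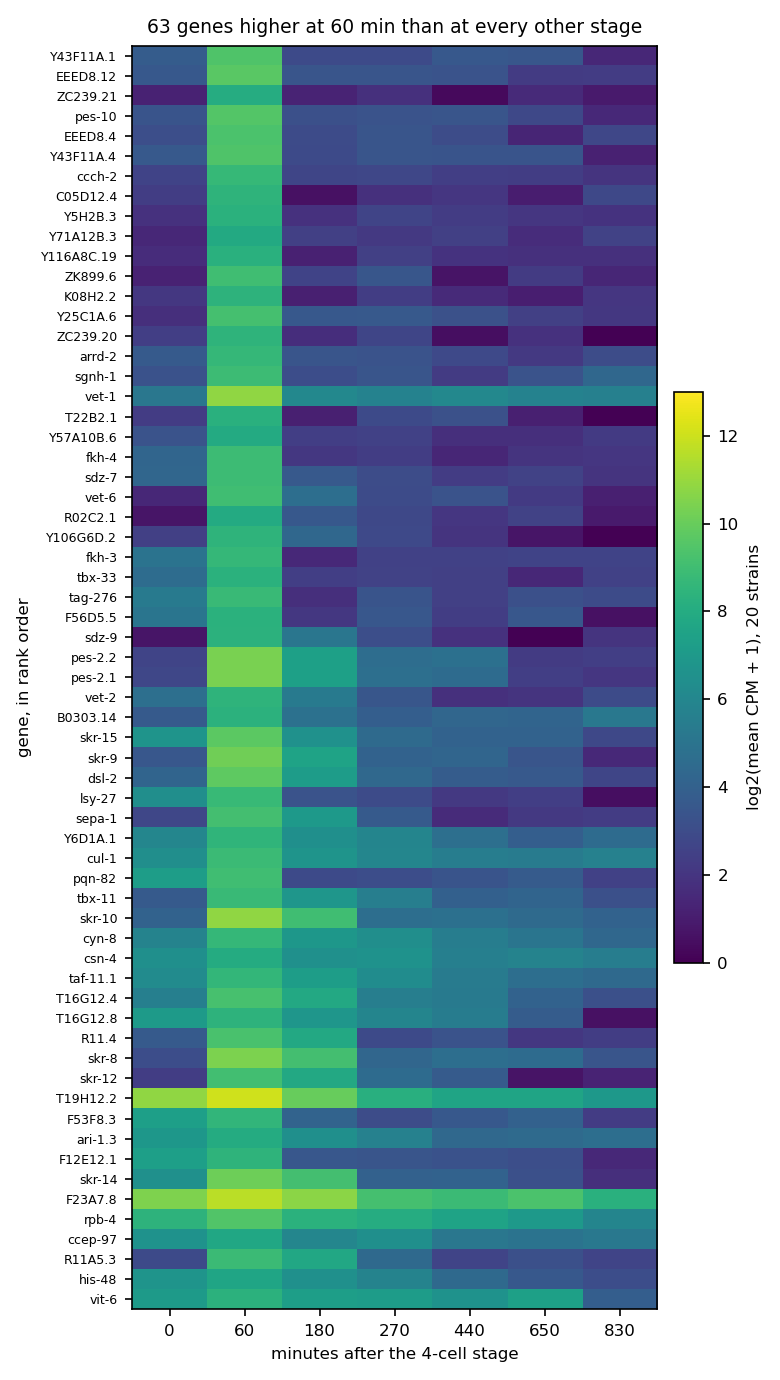
Heat map of the 63 peak genes (rows) at the 7 stages (columns, min after the 4-cell stage); colour is log2 of the mean CPM over 20 strains plus 1. The 60 min column is the brightest in each row, and rows differ in how much signal stands at 0 and 180 min.

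Among them is pes-10 (Y46G5A.27), a long-used marker of early zygotic transcription. It had 207 CPM in the lowest 60 min library, 762 in the median and 1082 in the highest, a mean of 743 ± 219. The mean was 9.4 CPM at 0 min and 8.11 CPM at 180 min, and the highest value in any other library was 84.8 CPM, at 270 min. All 20 libraries at 60 min lay above all 120 others. In the repeats, pes-10 had 721, 911 and 927 CPM in the 3 B libraries, and 0 in each of the A and C libraries (adjusted p = 3.6e-43 for B against the mean of the other time points).

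The early zygotic list holds 15 genes in the table, of which 7 passed the filter and 6 were peak genes. In the repeats 14 were measured, 10 of them called higher at B and 1 lower. No share is read from these counts, since genes near 0 elsewhere pass a filter mostly through the stage where they are high. The peak genes of the list differed in what was left at 180 min. vet-6 (F44F1.7) ran from 282 to 867 CPM with a median of 497 at 60 min, against means of 1.68 CPM at 0 min and 24.6 CPM at 180 min. The adjacent near-copies pes-2.1 and pes-2.2 averaged 1326 ± 434 and 1360 ± 447 CPM at 60 min, against 5.7 and 5.46 CPM at 0 min and 166 and 168 CPM at 180 min. Their separate values are uncertain because such copies can share reads. vet-1, named after its values were seen, had 464, 1677 and 4363 CPM as its lowest, median and highest values at 60 min, against means of 34.8 CPM at 0 min and 66 CPM at 180 min. Each of these genes was called higher at B in the repeats.

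The strongest peak genes by the smallest of their 6 differences are mostly genes without a given name. Y43F11A.1 ran from 355 to 1252 CPM with a median of 658 at 60 min, against means of 12.8 CPM at 0 min and 6.48 CPM at 180 min. EEED8.12 ran from 453 to 1543 CPM with a median of 778, against means of 10.8 CPM at 0 min and 9.66 CPM at 180 min. ZK899.6 ran from 148 to 1194 CPM with a median of 473, against means of 1.36 CPM at 0 min and 5.17 CPM at 180 min, and its log2 difference from the mean of the other stages was 6.69 ± 0.17 (SE). In each of these 3, every 60 min library lay above all libraries at 0 and 180 min. In the repeats, ZK899.6 had 397, 394 and 573 CPM at B and 0 in the 18 other libraries.

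Of the 15 genes ranked highest, ccch-2 (F38C2.5), a gene for a CCCH zinc finger protein, is the only one besides pes-10 with a given name. It ran from 116 to 917 CPM with a median of 430 at 60 min, against means of 5.19 CPM at 0 min and 5.69 CPM at 180 min. The other 10, which are ZC239.21, ZC239.20, EEED8.4, Y43F11A.4, C05D12.4, Y5H2B.3, Y71A12B.3, Y116A8C.19, K08H2.2 and Y25C1A.6, each had a median of 0 CPM at 0 min. Among all 63, 28 have no given name. For 26 of the 63 (41.3%), and for 26 of the 2970 genes tested (0.875%), all 20 libraries at 60 min lay above all 120 others.

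**Figure D2:**
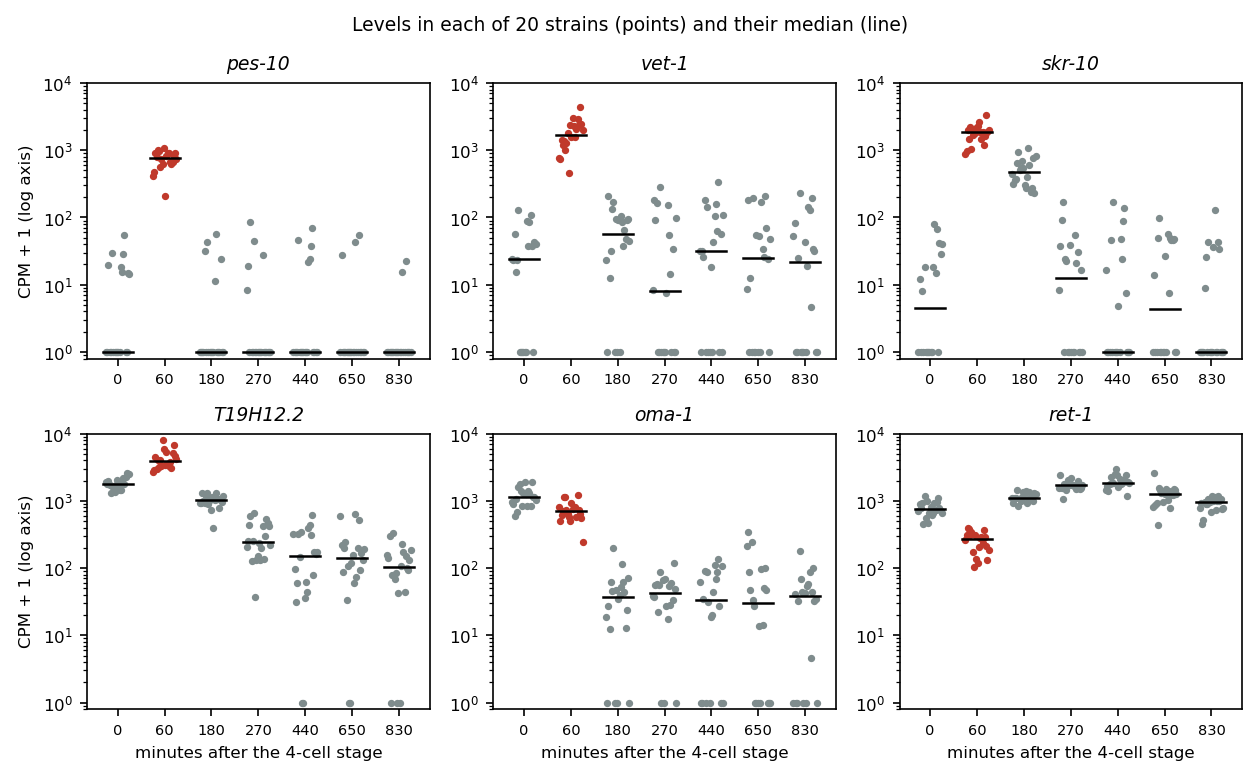
CPM plus 1 (log axis) of 6 genes against stage. Each point is 1 of 20 strains, a short line marks the median of each stage, and points at 60 min are red. pes-10 and vet-1 stand apart at 60 min, skr-10 is highest there and lower at 180 min, T19H12.2 is already present at 0 min, oma-1 is highest at 0 min, and ret-1 dips at 60 min.

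Transcription factors form a further part of the peak set. The forkhead genes fkh-4 (C29F7.5) and fkh-3 (C29F7.4) are neighbours on the genome and close copies. fkh-4 ran from 184 to 799 CPM with a median of 482 at 60 min, against means of 18.1 CPM at 0 min and 3.24 CPM at 180 min. fkh-3 averaged 408 ± 137 CPM at 60 min, against 29.5 CPM at 0 min and 1.84 CPM at 180 min. Both had more signal at 0 min than at 180 min. Another forkhead gene, pha-4, the selector of pharynx fate, was lower at 60 min: its median was 22.1 CPM, against means of 8.61 CPM at 0 min, 422 CPM at 180 min and 869 CPM at 270 min (log2 difference from the mean -2.79 ± 0.23 SE, edgeR adjusted p = 3.8e-23).

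The T-box family also held genes of both directions. tbx-33 (Y66A7A.8) had 77.4, 322 and 563 CPM as lowest, median and highest at 60 min, against means of 23.6 CPM at 0 min and 4.32 CPM at 180 min. tbx-11 (F40H6.4) had 229, 419 and 1084 CPM, against means of 11.8 CPM at 0 min and 113 CPM at 180 min. The 60 and 0 min groups overlap for tbx-33 and not for tbx-11, and tbx-11 has more left at 180 min. tbx-2, which acts in the pharynx and other tissues, was lower at 60 min at a median of 29.4 CPM, against means of 214 CPM at 180 min and 206 CPM at 270 min (log2 difference from the mean -1.72 ± 0.23 SE, edgeR adjusted p = 1.5e-11).

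Many regulators of early cell fate are too sparse for single libraries and are given as counts summed over the 20 libraries of a stage, of 1577075 in all at 60 min, 1710480 at 0 min and 1753071 at 180 min. The T-box genes tbx-37 and tbx-38, which act redundantly in the anterior blastomere descendants, had 141 and 243 counts at 60 min, against 0 and 1 at 0 min and 0 and 3 at 180 min. hlh-27, a bHLH gene of the Notch-responsive ref-1 family, had 287 counts at 60 min, against 0 at 0 min and 1 at 180 min. The endoderm GATA gene end-3 had 66 counts at 60 min and 0 at both 0 and 180 min, while its relative end-1 had 63, against 0 at 0 min and 41 at 180 min. ceh-51, a mesoderm homeobox gene, had 153, against 1 at 0 min and 20 at 180 min. tbx-35, the T-box gene of the MS lineage, had 31 counts at 60 min and 0 at both 0 and 180 min. med-1 and med-2, upstream of end-1 and end-3, had 0 counts at 60 min, which allows up to 1.90 CPM of all counts (a floor of 3 counts over the stage). That floor covers counting error only. How reads shared by related genes were counted is not known, so absence is not read from the 0.

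The Notch pathway itself is seen in both maternal and embryonic parts. glp-1, the Notch receptor loaded by the mother, had 117 summed counts at 60 min, against 363 at 0 min and 30 at 180 min. lin-12, the other Notch receptor, had 59 at 60 min, against 3 at 0 min and 121 at 180 min. apx-1, the maternal ligand of glp-1, had 63 at 60 min, against 172 at 0 min and 35 at 180 min. dsl-2, a gene of the DSL ligand family and a peak gene, averaged 890 ± 237 CPM at 60 min, against 17.5 CPM at 0 min and 145 CPM at 180 min. glp-1 and apx-1 therefore had most counts at 0 min of these 3 stages, dsl-2 at 60 min and lin-12 at 180 min.

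Genes named sdz, for dependence on the maternal factor SKN-1 (SKN-1 dependent zygotic), were scarce in the main test: 3 of 34 passed its filter. All 3 were called higher, but no share is read from that, since genes near 0 elsewhere pass mostly through 60 min. sdz-7 (C49D10.11) ran from 222 to 867 CPM with a median of 475 at 60 min, against means of 18.3 CPM at 0 min and 11.3 CPM at 180 min. With the minimum count of the filter lowered from 10 to 2, 8355 genes were tested, 2324 (27.8%) were higher and 303 (3.63%) were peak genes. There, 20 sdz genes passed, and no share called is read from them, since genes of this level pass mostly through the stage where they are high. sdz-16 had 238 summed counts at 60 min, against 3 at 0 min and 6 at 180 min, while sdz-28 had 201, against 2 at 0 min and 311 at 180 min. skn-1 itself was lower at 60 min, at 45.6 ± 34.9 CPM, against 186 CPM at 0 min and 74.8 CPM at 180 min (log2 difference from the mean -1.27 ± 0.20 SE, edgeR adjusted p = 2.5e-09). That call ended with the lower filter, at a log2 difference of -0.78, and in 6 strains (550, 570, 502, 555, N2 and 575) fitted alone, at -0.96.

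The Skp1-related list had 13 of its 20 members in the test. Of these, 9 were called higher at 60 min than the mean of the other stages, 3 were lower, and 6 were peak genes. Over all genes tested, 25.3% were higher, 35.5% were lower and 2.12% were peak genes. Members near 0 elsewhere pass the filter mostly through the stage where they are high, so no share is read from these counts. skr-9 (C52D10.7) ran from 453 to 2125 CPM with a median of 1176 at 60 min, against means of 10.4 CPM at 0 min and 186 CPM at 180 min. skr-8 (C52D10.9) ran from 729 to 2918 CPM with a median of 1231, against means of 7.46 CPM at 0 min and 554 CPM at 180 min. skr-14 averaged 1134 ± 274 CPM at 60 min, against 91.4 CPM at 0 min and 544 CPM at 180 min. The 60 min libraries of skr-9 and skr-8 were all above the 0 min ones, and those of both genes overlap the 180 min ones. skr-7, skr-8, skr-9, skr-10 and skr-14 are near-copies, so reads may be split between them.

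Other Skp1-related genes peaked elsewhere or not at all. skr-1, the broadly used Skp1 of the worm, averaged 480 ± 141 CPM at 60 min, against 355 CPM at 0 min and 423 CPM at 180 min, and was not called against the mean of the other stages (log2 difference -0.15 ± 0.10 SE, edgeR adjusted p = 0.16). skr-2 averaged 479 ± 167 CPM at 60 min, against 409 CPM at 0 min and 37.3 CPM at 180 min. skr-19 averaged 88.1 ± 53.5 CPM at 60 min, against 18.3 CPM at 0 min, 595 CPM at 180 min and 777 CPM at 270 min. The list as a whole held a median of 1.12% of counts at 60 min, against 0.153% at 0 min and 0.535% at 180 min. Library ranges did not overlap between 60 min (0.659% to 1.82%) and 0 min (0.0844% to 0.213%).

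The partners of Skp1 were read from the same libraries. cul-1, the cullin scaffold of SCF, was a peak gene with 470 ± 194 CPM at 60 min, against 84.5 CPM at 0 min and 106 CPM at 180 min. It was called higher at B in the repeats. F-box genes, which supply the substrate receptors, are mostly of low abundance: 3 of 353 passed the main filter, and 69 passed the lower one, 44 of them of the fbxb family. The families are given by the summed counts of genes that passed the lower filter or that of the repeats. Such genes pass mostly through the stage where they are high, so the sums carry that choice. Over all 353 members, with no filter, the median share of counts was 0.687% at 60 min, 0.15% at 0 min and 0.401% at 180 min.

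Summed over those that passed, fbxb genes had 6839 counts at 60 min, against 106 at 0 min and 3045 at 180 min. The fbxa genes that passed had 974 counts at 60 min, against 1830 at 0 min and 353 at 180 min, and the fbxc genes 1741, against 591 at 0 min and 3298 at 180 min. The genes that passed in the 3 families thus had their highest sums among these stages at 60, 0 and 180 min. No stage is assigned to a whole family from them. Among the most abundant, fbxb-84 had 354 counts at 60 min, against 7 at 0 min and 88 at 180 min.

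**Figure D3:**
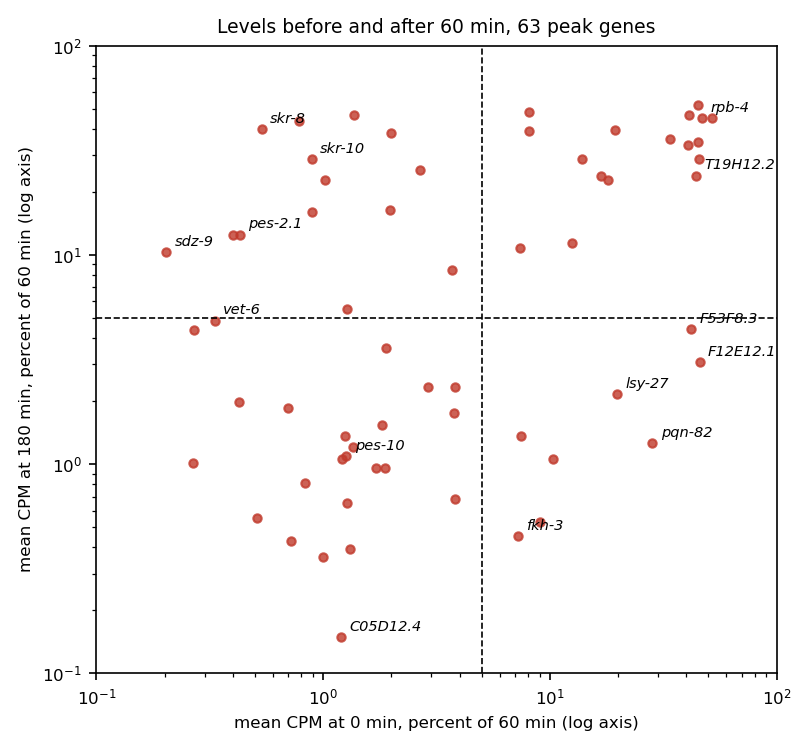
Mean level at 0 min (x) and at 180 min (y) of each peak gene as a percent of its mean at 60 min, on log axes; dashed lines mark 5%. Of the 63 genes, 24 lie under 5% at both stages, 14 are under 5% at 0 min alone, 8 at 180 min alone and 17 at neither.

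Peak genes differed in the shape of the pulse. At 0 min, 38 genes were under 5% of their 60 min mean and 12 were at 20% or more, with a median of 1.98%. At 180 min, 32 were under 5% and 22 were at 20% or more, with a median of 4.85%. In 35 of the 63, at least 80% of the sum of the 7 stage means stood at 60 min. The median of that share was 83.6% for the peak genes and 10.5% for all genes tested.

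T19H12.2, named after its values were seen, shows the broad end of that range. It had 2680, 3917 and 8009 CPM as its lowest, median and highest values at 60 min, against means of 1867 CPM at 0 min and 1008 CPM at 180 min. All 20 libraries at 60 min still lay above all 120 others, the highest of which had 2559 CPM, at 0 min. rpb-4 (F43E2.2), which encodes a subunit of RNA polymerase II, had 362, 682 and 1136 CPM at 60 min, against means of 333 CPM at 0 min and 320 CPM at 180 min. Its 60 min and 0 min libraries overlap. In the repeats, rpb-4 had 521, 418 and 770 CPM at B, against 181, 349 and 207 CPM at A and 191, 245 and 171 CPM at C (log2 difference from the mean of the other time points 2.03 ± 0.17 SE, edgeR adjusted p = 5.9e-18).

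Of 18 tested genes of the transcription machinery list, 12 were called higher than the mean of the other stages, against 25.3% of all genes. Against the stages next in time, 2 were higher than at 0 min and 2 higher than at 180 min, near the 16.2% and 17% of all genes. The list median log2 difference from the mean was 1.16, against -0.19 over all genes. spt-4, an elongation factor, lay just outside the peak set with 545 ± 186 CPM at 60 min, against 264 CPM at 0 min and 198 CPM at 180 min. The smallest of its 6 log2 differences was 0.99, with Y111B2A.2 at 0.98 and vit-3 at 0.96 next. Just inside stand vit-6 at 1.00, his-48, a histone H2B gene, at 1.01 and R11A5.3 at 1.02. Under relative log expression scaling and by DESeq2, 0 genes of the transcription machinery list were peak genes, against 1 in the main fit. The same held for the histone list.

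The repeats of strain 522 read the peak genes in libraries that had no part in choosing them. There, 7584 genes were tested, of which 2069 (27.3%) were higher at B than the mean of the other time points and 1398 (18.4%) were lower. By DESeq2 the balance was the other way, with 1785 higher and 2403 lower. All 63 peak genes were measured, and all 63 were called higher at B. Of these, 60 were higher at B than at each other time point, against 455 (6%) of all genes measured. The exceptions were F23A7.8, vit-6 and csn-4, the last a subunit of the COP9 signalosome, which removes Nedd8 from cullins. The 60 min library of strain 522 is among the 20 that chose the genes, but none of the repeats is.

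The shares in the repeats are of raw gene counts, unlike the scaled shares given for the strains. In counts, the 63 genes took 3.58%, 4.40% and 3.87% of the 3 B libraries. They took 0.655% to 0.678% of the A libraries and 0.552% to 0.707% of the C libraries. The 3 B libraries lay above all 18 others in 60 of the 63 genes (95.2%), against 599 of all 7584 measured (7.9%). Of the 240 peak genes added by the lower filter, 230 were measured in the repeats, 228 were higher at B and 177 were higher than at each other time point. Over all genes measured, 27.3% and 6% were so called. Sparse genes pass the filter of the repeats mostly through the time point where they are high, so no share is read from these counts.

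**Figure D4:**
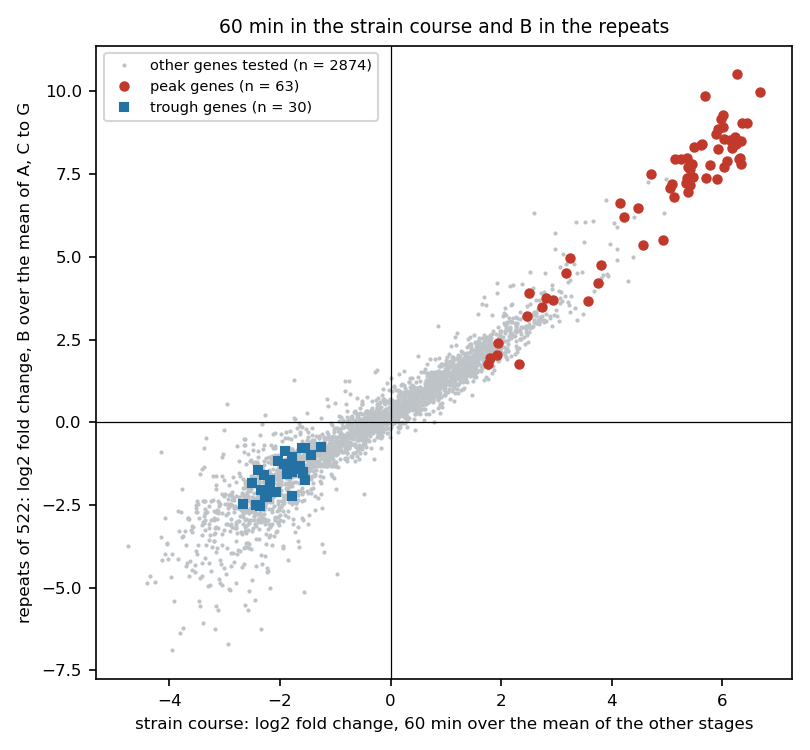
Log2 difference of B from the mean of the other time points in the repeats of strain 522 (y) against the log2 difference of 60 min from the mean of the other stages in the strains (x), for 2967 genes tested in both. Red points are the 63 peak genes, all above 0 on both axes; blue squares are the 30 genes lowest at 60 min; grey points are the other 2874, and values of genes with no counts in a group depend on the fit's prior count.

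The peak genes were chosen from these same 20 strains, so their values by strain are a description. In 59 of the 63, 60 min was higher than the mean of the same strain's other stages in all 20 strains, and the fewest was 16 of 20, for vit-6. The median coefficient of variation over strains at 60 min was 37.7% for peak genes, against 38.1% for the 1182 genes with a mean of at least 200 CPM. It ran from 24.2%, for skr-14, to 103%, for vit-6. Where at least 20 counts were expected from the other 19 strains, none of 780 pairs of a peak gene and a strain held 0.1 or less of the expected count. Over all genes tested, 17 of 16050 pairs did. Such pairs were rare throughout, so the 0 does not set the peak genes apart.

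A set of 6 strains (550, 570, 502, 555, N2 and 575) deviated together over the course. Each strain's deviations from the stage means were averaged over all its stages. These averages had a median correlation of 0.478 among the 6 strains, against -0.299 with the other 14. The correlations cover the whole course, not 60 min alone. The labels name no batch for these strains. Fitted alone, the 6 strains gave 125 peak genes of 4200 tested and kept 54 of the 62 tested there, and the other 14 gave 49 of 2285 and kept all 39 of the 39 tested there. What sets these strains apart was not tested.

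Maternal transcripts at 60 min stood between the stages on either side. Of 23 tested genes of maternal RNA-binding proteins, 20 were called lower at 60 min than at 0 min and 20 were called higher than at 180 min. Over all genes tested, those shares were 14.8% and 17%. oma-1 (C09G9.6), a CCCH zinc finger regulator of the oocyte-to-embryo change, had 246, 709 and 1229 CPM as lowest, median and highest at 60 min. Its means were 1193 CPM at 0 min and 42.4 CPM at 180 min, and the 60 min libraries lay above all 180 min ones. pos-1, a zinc finger protein of the posterior lineage, averaged 1383 ± 424 CPM at 60 min, against 5152 CPM at 0 min and 268 CPM at 180 min. mex-1, which restricts germline factors to posterior cells, averaged 436 ± 112 CPM at 60 min, against 1032 CPM at 0 min and 48.3 CPM at 180 min.

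Not every maternal RNA of the list followed that order. ccf-1, a deadenylase subunit, had 238 ± 117 CPM at 60 min, against 263 CPM at 0 min and 246 CPM at 180 min, and was not called in either contrast. The means of era-1 did follow that order, with 47.5 ± 66.8 CPM at 60 min, against 543 CPM at 0 min and 9.42 CPM at 180 min. Genes of the eggshell list, made in the oocyte, were lower at 60 min than at 0 min in 6 of 6 tested and higher than at 180 min in 5. Among all genes tested, 14.8% and 17% were so called. cpg-1, an eggshell chondroitin proteoglycan, had 53.7, 266 and 1355 CPM at 60 min, against means of 2358 CPM at 0 min and 60.6 CPM at 180 min.

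Some transcripts abundant at 0 min were not called different at 60 min and were low at 180 min. The C-type lectin gene clec-88 had 1044, 2035 and 3916 CPM as lowest, median and highest at 60 min, against means of 1850 CPM at 0 min and 84.6 CPM at 180 min. clec-91 averaged 889 ± 346 CPM at 60 min, against 586 CPM at 0 min and 20.8 CPM at 180 min. sip-1, a small heat shock protein gene of the germline and embryo, averaged 4306 ± 1043 CPM at 60 min, against 6563 CPM at 0 min and 246 CPM at 180 min. None of these 3 was called against 0 min, and each was called higher than at 180 min, by log2 differences of 4.61, 5.34 and 4.21 (edgeR adjusted p at most 1.3e-29).

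Cell-cycle genes were mostly higher at 60 min than the mean of the other stages, though none was a peak gene. Of 31 tested, 28 were called higher in that contrast and 2 were lower, against 25.3% and 35.5% of all genes. The list median log2 difference was 2.19, and 13 had their highest stage mean at 60 min. rnr-2, a ribonucleotide reductase subunit, had 1598, 2716 and 3581 CPM at 60 min, against means of 1574 CPM at 0 min and 626 CPM at 180 min. pcn-1, the sliding clamp PCNA, averaged 2360 ± 584 CPM at 60 min, against 1386 CPM at 0 min and 1198 CPM at 180 min. cyb-1, a cyclin B, averaged 1977 ± 347 CPM at 60 min, against 1082 CPM at 0 min and 992 CPM at 180 min. All 20 strains were higher at 60 min than the mean of their other stages in each of these 3. Against the neighbours in time, 3 of the 31 genes were called higher than at 0 min and 8 higher than at 180 min. Over all genes tested, those shares were 16.2% and 17%. The 2 lower genes were cki-1, a cyclin-dependent kinase inhibitor, at 23.7 ± 23.9 CPM at 60 min, against 299 CPM at 180 min, and cyd-1, a cyclin D, at 39.8 ± 39.9 CPM at 60 min, against 849 CPM at 180 min.

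Of 14 histone genes tested, 5 were called higher than the mean of the other stages and 4 were lower, near the 25.3% and 35.5% of all genes. With the lower filter 54 of 64 were higher and 2 lower, and in the repeats 12 of 20 were higher and 3 lower, so no direction is given for the family. hil-5, a linker histone gene, averaged 1313 ± 344 CPM at 60 min, against 1271 CPM at 0 min and 185 CPM at 180 min. hil-3, another linker histone gene, averaged 508 ± 205 CPM at 60 min, against 28.2 CPM at 0 min and 2990 CPM at 180 min. his-24 averaged 1209 ± 661 CPM at 60 min, against 152 CPM at 0 min and 11286 CPM at 180 min. The linker histone genes thus had different highest stages. Core histone copies share sequence, so their separate values are uncertain.

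Ribosomal protein genes were low at 60 min. Of 75 tested, 71 were called lower than the mean of the other stages, against 35.5% of all genes, with a list median log2 difference of -2.03. Against 0 min, 27 were called higher, against 16.2% of all genes. Under relative log expression scaling 5 were, against 298 of 2970 genes. Against 180 min, 62 were called lower, against 24.2% of all genes. rpl-11.2 had 0, 147 and 390 CPM as lowest, median and highest at 60 min, against means of 74 CPM at 0 min and 1130 CPM at 180 min. The list held a median of 2.67% of counts at 60 min, with 1.99% to 4.90% over libraries, against 1.47% at 0 min, 6.19% at 180 min and 15.5% at 830 min. The 60 and 180 min ranges overlap, since the lowest 180 min library held 4.64%.

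Genes of differentiated tissue were called lower at 60 min than the mean of the other stages in most cases: 19 of 19 muscle genes, 11 of 11 gut genes, 7 of 8 neuron genes, 6 of 8 pharynx genes and 43 of 55 collagen genes, against 35.5% of all genes tested. These counts depended on the filter and the series. For the collagens, 39 of 85 were lower and 15 higher with the lower filter, and 16 of 82 were lower and 17 higher in the repeats. With the lower filter, 8 of 11 gut, 11 of 14 neuron and 7 of 12 pharynx genes were lower, against 24.2% of all genes. In the repeats, 8 of 11 gut, 5 of 13 neuron and 5 of 14 pharynx genes were, against 18.4%. In these 3 lists 0 genes were called higher. act-4, an actin of muscle and other tissues, had 549, 1055 and 2000 CPM at 60 min, against means of 684 CPM at 0 min, 1644 CPM at 180 min and 7920 CPM at 830 min. Of 9 homeobox genes named ceh, 5 were lower. ceh-27 had 0 CPM in the median 60 min library and 67.1 in the highest, against means of 1.44 CPM at 0 min and 313 CPM at 180 min (log2 difference from the mean of the other stages -3.95 ± 0.42 SE, edgeR adjusted p = 4.9e-16). nhr-2, a nuclear receptor of early embryos, was the only higher one of 8 tested in its list, at 278 ± 120 CPM at 60 min, against 41.8 CPM at 0 min and 227 CPM at 180 min.

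**Figure D5:**
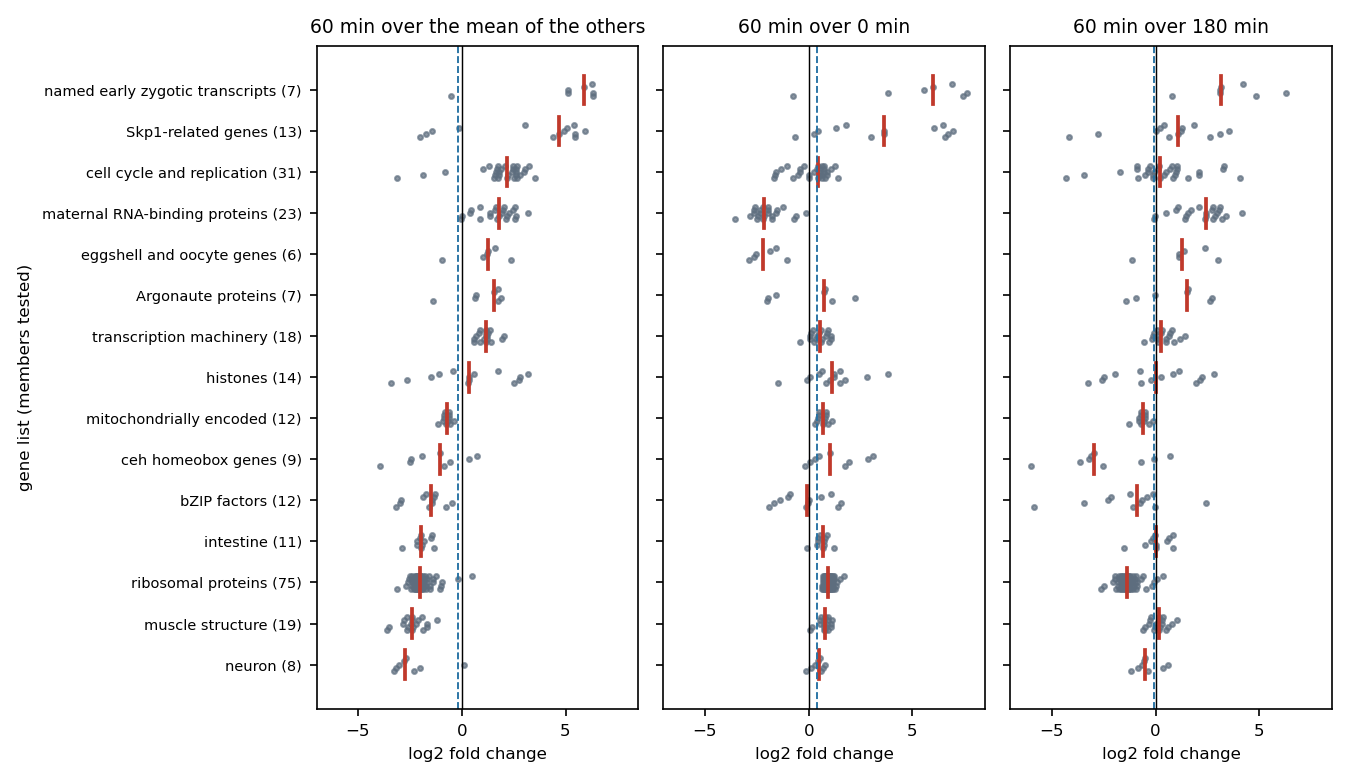
Log2 difference of 60 min from the mean of the other stages, from 0 min and from 180 min for the tested members of 15 gene lists; each point is a gene, red marks the list median and the dashed blue line the median of all genes tested. The medians of the ribosomal, muscle, neuron and gut lists lie under 0 in the panel against the mean, and that of the maternal RNA-binding list is -2.15 against 0 min and 2.44 against 180 min.

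A set of 30 genes (1.01% of those tested) was called lower at 60 min than at each other stage. They were chosen by that dip, and no function is assigned to the set. ret-1 (W06A7.3), the reticulon of the worm, had 101, 270 and 400 CPM as lowest, median and highest at 60 min, against means of 777 CPM at 0 min and 1138 CPM at 180 min. rab-5 (F26H9.6), a GTPase of early endosomes, had 0, 120 and 193 CPM, against means of 317 CPM at 0 min and 401 CPM at 180 min. mce-1 (D2030.5), a methylmalonyl-CoA epimerase, had 0, 20.2 and 80 CPM, against means of 103 CPM at 0 min and 110 CPM at 180 min. For ret-1 all 20 libraries at 60 min lay under all those at 0 and 180 min, while the groups overlap for rab-5 and mce-1.

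unc-60 (C38C3.5), an actin-severing ADF/cofilin, averaged 160 ± 87.8 CPM at 60 min, against 474 CPM at 0 min and 593 CPM at 180 min. crh-2 (C27D6.4), a CREB-related gene, averaged 58.1 ± 40.5 CPM, against 189 CPM at 0 min and 159 CPM at 180 min. Y82E9BR.14, tcl-2 and F41H10.3 averaged 43.5, 11.9 and 51.1 CPM at 60 min, against 125, 34.7 and 149 CPM at 0 min. let-60, the Ras gene, and rab-11.1, a GTPase of recycling endosomes, named after their values were seen, averaged 44 and 176 CPM at 60 min, against 111 and 469 CPM at 0 min and 391 and 933 CPM at 180 min.

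In the repeats, all 30 were measured and 25 were called lower at B than the mean of the other time points, against 18.4% of all genes measured. The other 5 were larp-1, hip-1, C06A5.3, arx-3 and smap-1. Of the 30, 6 were lower at B than at each other time point, against 34 (0.448%) of all genes. ret-1 had 321, 283 and 228 CPM at B, against 565, 580 and 640 CPM at A and 998, 855 and 855 CPM at C (log2 difference from the mean of the other time points -1.75 ± 0.25 SE, edgeR adjusted p = 3.2e-09). The 3 B libraries of ret-1 lay under all A and C libraries. Of the 30, 15 kept the call at each stage under relative log expression scaling, and 8 kept it with the minimum count of the filter lowered from 10 to 2. There, ret-1, unc-60, crh-2, tcl-2 and F41H10.3 were among those under 2-fold in at least 1 contrast, ret-1 with a log2 difference of -0.92.

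Vitellogenin genes, whose yolk proteins are made in the gut of the mother, varied widely between 60 min libraries. All 5 tested were called higher than the mean of the other stages, against 25.3% of all genes, and vit-6 was a peak gene. vit-6 had 0, 192 and 1253 CPM as lowest, median and highest at 60 min, against means of 135 CPM at 0 min and 153 CPM at 180 min. The 6 vitellogenin genes together ran from 0 to 6297 CPM of all gene counts at 60 min with a median of 850, and 6 libraries held over 3000 (517, 522, 529, 536, 573 and 598). At other stages 0 to 2 libraries did. Those 6 libraries held 796 to 2472 CPM of 5 adult-type collagen genes, picked after values were seen, with a median of 1485, against 0 to 922 with a median of 133 in the other 14. Without them edgeR called 0 of the 5 vitellogenin genes, with 0 at an unadjusted p under 0.05, but the libraries were left out by the level of these same genes, so nothing is read from that loss. In that fit 58 genes were peak genes and 51 of the 57 tested peak genes stayed so. In the repeats, 6 of 6 vitellogenin genes were called higher at B, against 27.3% of all genes measured. Their sum was 3754 to 4470 CPM at B and 2524 to 5493 at A. Whether maternal tissue carried over into these pools was not tested.

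Gene structure and position were read for the peak genes from the current gene models. There, 62 of the 63 had a coding length, with a median of 738 bases, against 1077 for all genes tested. They had a median of 3 exons, against 5, and 30 of 62 (48.4%) had at most 2 exons, against 11.8% of all genes tested. The 30 genes lowest at 60 min had a median coding length of 1273.5 bases and 6 exons, and none had 2 exons or fewer. Of the 62 placed peak genes, 17 (27.4%) lay within 3 protein-coding genes of another peak gene; the share expected of a set of this size was not computed. The close groups were pes-2.1 with pes-2.2, ZC239.20 with ZC239.21, EEED8.12 with EEED8.4, Y43F11A.1 with Y43F11A.4, T16G12.4 with T16G12.8, fkh-3 with fkh-4, R11.4 with F23A7.8, and skr-9, skr-8 and skr-12. Near-copies among them can share reads, which was not tested.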

How the data were processed

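PolyA RNA was profiled with CEL-Seq, a barcoded method that reads 3' ends after linear amplification, per the labels' protocols. The authors deposited raw, whole-number gene counts. Per the submitters' processing notes the authors used CASAVA 1.8 and Bowtie2 2.1.0. Not given in the sources used here are the counting program, genome build, annotation, use of strand and any molecular identifiers. The table holds 20687 genes, and 20063 identifiers matched a RefSeq locus tag. Summary rows without a gene stayed out of totals and tests. In the repeats, reads not aligned made up 38.8% to 70.2% of reads and those in no feature 17.8% to 47.7% of aligned reads. The 92 spike-in rows hold 0. A further 15 columns that copy other libraries were not used. All intervals and floors cover counting error only.

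Counts were fitted with edgeR 4.0.16 (R 4.3.3; TMM, filterByExpr by stage with a minimum count of 10, quasi-likelihood test) to all 140 strain libraries, with strain as a block, and to the 21 repeats without one. The contrasts were 60 min minus the mean of the other 6 stages and minus each stage. Benjamini-Hochberg adjustment ran over all genes of a fit. The labels' strain pairs the libraries: the median correlation of deviations was 0.0808 between 60 min and other libraries of a strain, against -0.00843 between strains. On simulated counts for 60 min (1948 genes) the adjusted p found 98.5% of simulated 2-fold changes, 100% of 4-fold changes and 0.111% of genes left unchanged. For the repeats (6232 genes) it found 72.6%, 97.8% and 0.0991%. With the 2-fold threshold added, as in the calls here, 58.2% of simulated 2-fold changes were called for 60 min and 53.6% for the repeats. Of 4-fold changes, 100% and 97.8% were called.

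The members and the 36 gene lists were chosen with earlier results of these data known. Named genes are the 15 peak genes with the largest smallest-of-6 difference, the 8 lowest genes by the same rule turned round (a mean of at least 50 CPM, in the lower case at the highest other stage, and at least 19 strains alike), and up to 4 members per list with the smallest p. Other names were added after values were seen. Gene structure came from the Ensembl annotation and gene order from RefSeq. The build behind the counts is not given, so no coordinates are printed. Alternatives were other scalings and filters, DESeq2 1.42.0, no strain block, libraries or strains left out, and a 4-fold threshold.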

Additional observations from a re-analysis of the deposited data

How the results depend on the processing

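Of 2970 genes tested, 751 were higher at 60 min and 1055 lower, with 63 peak genes and 30 lowest genes. With a minimum count of 2 these became 2324, 2022, 303 and 63, and with no filter 2341, 3025, 354 and 138, with all 63 peak genes kept in both but 8 and 22 of the 30 lowest genes. A 4-fold threshold gave 251, 565, 41 and 0. By DESeq2, and by edgeR at an unadjusted p under 0.05, the last count was also 0. The 6 strains that deviated together gave 1214 higher genes, 1087 lower genes and 125 peak genes, chosen after seeing the data, as was leaving out the libraries high in vitellogenins. Without strain as a block the counts were 755, 1060, 61 and 28. In the repeats, DESeq2 gave 2403 lower genes in place of 1398, and the cause was not tested. The repeats' replicate numbers share only a number (median correlation -0.0016 for the same number and 0.0008 for others); with the replicate block 2052 genes were higher and 1387 lower at B. Leaving out each replicate number gave 1773 to 2437 higher genes, 951 to 1419 lower genes, 63 peak genes higher at B in each case, 55 to 61 higher than at each other time point, and 24 to 28 of the 30 lowest genes lower at B. Higher calls outnumbered lower ones with the minimum count of 2 and in the 6 strains, unlike in the main counts, and in the repeats the balance turned by DESeq2. Depth limits the rest: most early fate regulators have too few counts per library for the main filter.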

Other observations

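Germline small-RNA pathway genes were mixed at 60 min. Of 7 tested Argonaute genes, 4 were called higher than the mean of the other stages and 1 lower by edgeR's quasi-likelihood test. Over all genes tested, those shares were 25.3% and 35.5%. ergo-1, an Argonaute of endogenous small RNAs, had 524, 938 and 1873 CPM as lowest, median and highest at 60 min, against means of 652 CPM at 0 min and 347 CPM at 180 min. The noncoding RNA linc007 averaged 222 ± 120 CPM at 60 min, against 15.6 CPM at 0 min and 77.9 CPM at 180 min, and all 20 strains were higher at 60 min than the mean of their other stages.

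Among the epidermal fate genes, lin-26, a zinc finger gene needed for epidermal fate, averaged 49.5 ± 37.5 CPM at 60 min, against 207 CPM at 0 min and 330 CPM at 180 min. It was lower than the mean of the other stages in all 20 strains. pal-1, a caudal-type homeobox gene supplied by the mother, averaged 173 ± 81.8 CPM at 60 min, against 348 CPM at 0 min and 111 CPM at 180 min.

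A few strains stood far under the others at 60 min in single genes. linc168 had 7 counts in strain 522, against 120 expected from the other 19 strains. cpg-1 had 4 counts in strain 570, against 40.9 expected. ZC204.14 was at 0.1 or less of the expected count in 4 strains (522, 555, 570 and 575). These are single libraries with no second pool of the strain at that stage, apart from strain 522.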
